A study of Mus musculus with 15 samples.

Results

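This comparison concerned 7 of 15 brain libraries that carried RNA of olfactory origin, 3 from transgenic mice (TG) and 4 from wild type mice (WT). A library belonged to the set where Omp, the olfactory marker protein gene of mature olfactory sensory neurons, reached at least 20 CPM (the count scaled to the library total). Omp stood at 44.0 to 164 CPM in the 7 libraries while the highest of the other 8 had 2.77 CPM, and these levels define the set and are no result. The set held TG female 2, TG male 1 and TG male 3, and WT male 1, WT male 2, WT female 1 and WT female 4. The other 8 libraries, 4 TG and 4 WT, share no sample with them.

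The TG mice were homozygous for PLP-α-synuclein, in which the PLP promoter drives overexpression of human α-synuclein. Such expression falls chiefly in oligodendrocytes, the cells that wrap axons in myelin, and the line is used to model multiple system atrophy, a disease with α-synuclein inclusions in these cells. WT mice were non-transgenic C57Bl/6 controls matched for age and sex, and no other allele or agent was named for either group. All mice were 12 months old, each library came from 250 ng of total RNA of a snap-frozen hemisphere, and nothing in the labels says which part of the brain was dissected. Human transgene reads were not analysed here, so genotype rests on the labels. The 7 libraries held 15766779 to 21401727 counts, and 3 counts, the limit that a count of 0 allows for counting error alone, came to between 0.140 and 0.190 CPM in them.

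Markers were checked against the olfactory description first. A list of 14 bulb interneuron genes, among them Th, Dlx1 and Sp8, had a mean log2 CPM of 6.31 in WT male 1 and of 6.99 to 7.35 in the other 6 libraries. None of its members was at 0 in any of the 7. Striatal projection neuron markers (17 genes, among them Drd1 and Drd2) differed more among the libraries, with a mean log2 CPM of 6.73 in WT male 1 and 6.59 in TG female 2 against 4.00 to 5.85 in the rest. Hypothalamic markers summed to 106 CPM in WT male 1 and to 4.94 to 6.98 CPM in the other 6 libraries. Cortical excitatory neuron markers had a mean log2 CPM of 6.04 in WT male 2 and of 4.61 to 5.30 in the rest. Of these 12 cortical genes 11 were lower in TG, with a median log2 difference of -0.37. Of the bulb interneuron genes 13 of 14 were higher in TG, with a median of 0.27 (-0.02 without WT male 1). Of the striatal genes 14 of 17 were lower, with a median of -0.13 (0.90 without WT male 1). No member of these lists was called between genotypes at an adjusted p of at most 0.05 by edgeR. Regional markers thus differed among the 7 libraries. Striatal scores were graded, with WT male 1 and TG female 2 highest, on opposite sides of the genotype comparison. In bulk RNA, fewer cells of a type and less RNA per cell cannot be told apart.

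Type I and type II interferons act through transcription factors, those of the IRF family among them, which bind repeated GAAA elements near the start of their target genes. The products sense foreign nucleic acid, block viral replication, modify proteins with ISG15 and load peptides onto MHC molecules. In the brain, microglia, astrocytes, endothelial cells and oligodendrocytes are all able to carry this response.

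Across 16390 genes tested, 50 differed between TG and WT at an adjusted p of at most 0.05 (0.305% of genes) by edgeR's quasi-likelihood test with sex as a covariate and Benjamini-Hochberg adjustment. Of these, 33 rose in TG (0.201%) and 17 fell (0.104%). Among the 33 that rose, 24 were interferon-induced or antigen presentation genes, a grouping made after the values were seen. The other 26 called genes included 8 clustered protocadherins, the transcript Gm15446, the troponin gene Tnnt2, the helicase gene Mcm6 and the neuron navigator gene Nav1.

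The interferon genes were highest in TG female 2, intermediate in the TG males and WT females, and lowest in the WT males. Isg15, the ubiquitin-like modifier, stood at 16.6 CPM in TG female 2, 9.59 in TG male 1 and 10.3 in TG male 3, against 6.61 and 5.50 in WT females 1 and 4 and 3.05 and 2.80 in WT males 1 and 2. All TG libraries lay above all WT libraries, and the WT females lay above the WT males. Isg15 rose by 1.63 ± 0.13 on the log2 scale (SE, adjusted p = 0.0101 by edgeR's quasi-likelihood test).

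Irf7, the transcription factor that amplifies the type I response, was 43.0 CPM in TG female 2, 7.90 and 10.2 in TG males 1 and 3, 7.98 and 5.96 in WT females 1 and 4, and 3.23 and 2.71 in WT males 1 and 2. TG male 1 and WT female 1 were at nearly the same level, so the groups overlapped, and the fitted difference of 2.08 ± 0.24 (adjusted p = 0.0302, edgeR) rests on the adjustment for sex. Zbp1, a sensor of Z-form nucleic acid, had 82 counts in TG female 2, 13 in TG male 1 and 26 in TG male 3, against 10, 9, 4 and 4 in WT female 1, WT female 4, WT male 1 and WT male 2. Its fitted difference was 2.65 ± 0.33 (adjusted p = 0.0302, edgeR) at a low level.

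Oasl2, of the 2′-5′-oligoadenylate synthetase-like family, was 67.5 CPM in TG female 2 and 23.1 and 22.4 in TG males 1 and 3, above 20.2 and 14.5 in the WT females and 8.02 and 5.51 in the WT males. Ifitm3, which restricts viral entry, was 30.3 CPM in TG female 2 and 15.4 and 18.8 in the TG males, against 12.4 and 11.9 in the WT females and 6.71 and 7.03 in the WT males. Neither gene overlapped between genotypes, and Ifitm3 rose by 1.31 ± 0.10 (adjusted p = 0.00868, edgeR). Aim2, the cytosolic DNA sensor of the Ifi200 family, showed the least spread within genotype, at 6.20, 5.19 and 5.16 CPM in TG against 1.95 to 2.38 in WT. Its difference was 1.37 ± 0.14 (adjusted p = 0.0165, edgeR).

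**Figure D1:**
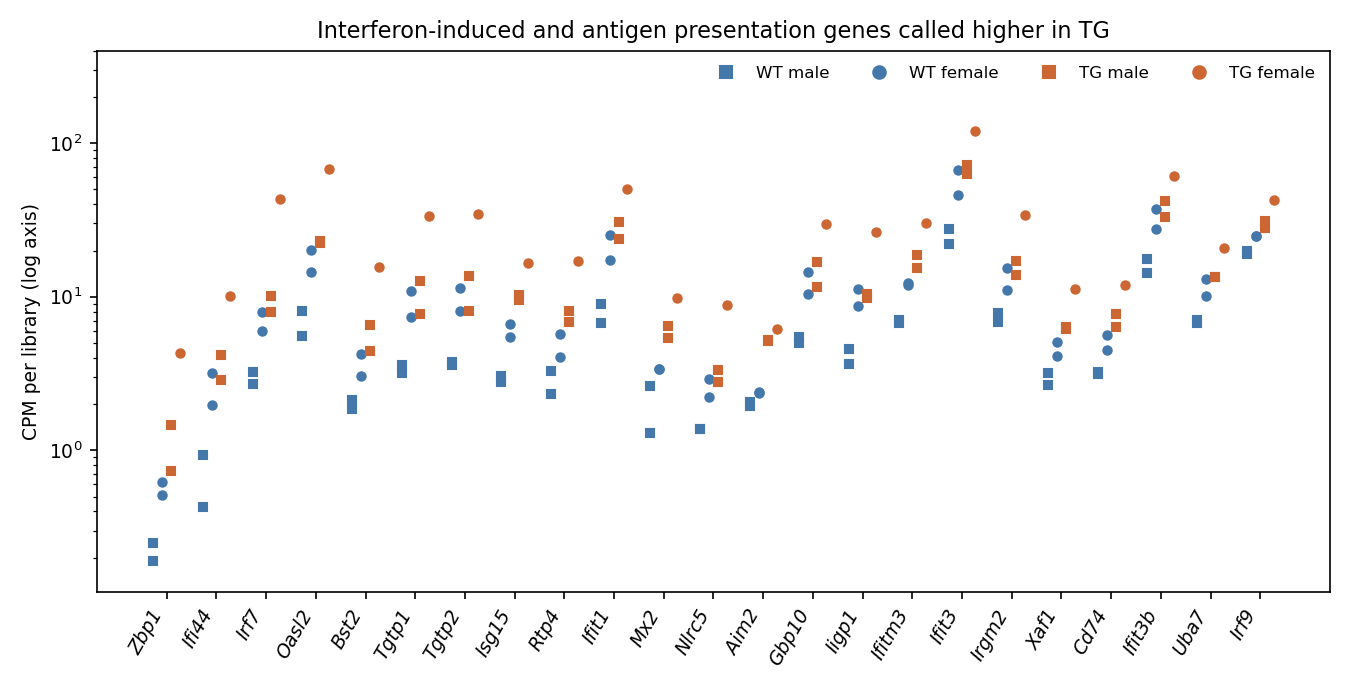
CPM on a log axis in each of the 7 olfactory-marker libraries for 23 of the 24 interferon-induced and antigen presentation genes called higher in TG, ordered by fitted difference. Squares are males, circles females, blue WT and orange TG; each point is 1 library. TG female 2 is the highest library for each gene and the WT males lie lowest, with TG males and WT females between them.

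Other members that rose were Bst2 (tetherin, which holds virus at the cell surface), Ifit1 and Ifit3 (binders of foreign RNA), and the GTPases Tgtp1, Tgtp2, Iigp1, Irgm2 and Gbp10. Their log2 differences ran from 1.19 for Irgm2 to 1.75 for Bst2. Rtp4, Ifi44, Xaf1, Uba7 (the activating enzyme for ISG15), Mx2 and Ifit3b also rose. Irf9, part of the factor that carries the type I signal to the nucleus, rose less, by 0.67 ± 0.08. Tgtp1 and Tgtp2, and Ifit3 and Ifit3b, are close copies whose reads could be split by the counting, so each pair is uncertain as to member. Mx2 is annotated as a transcribed pseudogene in this build.

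To show what these genes have at their starts, the 150 bases before the annotated start are printed for Isg15, Ifit1, Bst2 and Irgm2, chosen because each was called and holds the element searched. Sequences are from RefSeq (GRCm38.p6) and run 5′ to 3′ along the gene. Capitals mark a pair of GAAA letters with any 2 bases between them, read on either strand (TTTC, any 2 bases, TTTC on the other), and overlapping matches are run together. Isg15 lies at chr4:156200819-156200968 on the minus strand, Ifit1 at chr19:34640739-34640888 on the plus strand, Bst2 at chr8:71537473-71537622 on the minus strand and Irgm2 at chr11:58214827-58214976 on the plus strand.
Isg15: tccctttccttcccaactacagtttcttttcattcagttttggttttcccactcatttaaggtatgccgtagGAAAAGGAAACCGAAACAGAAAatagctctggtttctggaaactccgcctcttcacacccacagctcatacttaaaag
Ifit1: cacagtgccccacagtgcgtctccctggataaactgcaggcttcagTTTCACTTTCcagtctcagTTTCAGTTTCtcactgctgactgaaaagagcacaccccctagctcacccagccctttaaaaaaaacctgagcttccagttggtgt
Bst2: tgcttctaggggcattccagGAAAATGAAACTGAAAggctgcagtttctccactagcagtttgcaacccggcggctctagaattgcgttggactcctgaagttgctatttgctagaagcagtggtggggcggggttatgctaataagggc
Irgm2: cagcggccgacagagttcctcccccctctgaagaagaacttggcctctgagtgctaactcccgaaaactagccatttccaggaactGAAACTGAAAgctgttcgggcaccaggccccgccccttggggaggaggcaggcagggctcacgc
Isg15 holds 3 overlapping matches whose first bases lie 66 to 78 bases before the start, and Ifit1 holds 2, at 85 and 104 bases. In windows from 250 bases before to 50 after the start, the element was found in 9 of the 16 called interferon and antigen presentation genes with a promoter entry (56.2%). It was in 1 of 10 of the other called genes, and in 446 of 12310 genes tested with an entry (3.62%). Over all 32851 promoters in the table the share was 3.44%. Among all interferon list genes tested, called or not, 22 of 37 with an entry held the element (59.5%). For the antigen presentation list it was 6 of 22 (27.3%). The share among the called genes was thus no higher than over the interferon list. Those called genes were grouped by their known membership, which favours a high share. A match describes letters and is not shown to be bound.

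The list of 50 interferon response genes held 49 tested members. All 49 were higher in TG by the fit, 17 of them past the threshold (against 0.201% of all genes), with a median log2 difference of 1.09 against 0.00 over all genes. The list's mean log2 CPM was 4.26 in TG female 2, 3.22 in TG male 1 and 3.43 in TG male 3. WT females 1 and 4 stood at 3.30 and 2.94, and WT males 1 and 2 at 2.51 and 2.31. WT female 1 was above TG male 1, so the genotypes overlapped on this score, and within WT alone 46 of 49 members were higher in females, by a median of 0.65. WT males and WT females also carry different leading numbers in the sample titles, and sex was not tested apart from that grouping.

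Within males, 48 of 49 members were higher in TG, by a median of 0.81, and all 49 were higher in the single TG female than in the mean of the WT females, by a median of 1.09. All TG libraries were above all WT libraries for 12 members, where 4.01% of all genes did so. TG was above WT within each sex for 43 members, where 7.53% of all genes did so.

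These interferon calls depended on single libraries and on the sex term. Without TG female 2 both TG libraries are male, and the fitted difference is that of TG males from WT males. In that fit 48 of 49 list members remained positive with a median of 0.88, but only Isg15, Oasl2 and Ifitm3 of the 24 genes were still called. No gene of the 24 was called when WT male 2, WT female 4, TG male 1 or TG male 3 was left out, and without the sex term 1 of 24 was. Of the 24, 21 were still called without WT male 1 and 7 without WT female 1. Without both WT male 1 and TG female 2, the TG males are set against WT male 2 alone, and the WT females inform only the sex term. Calls from that fit are therefore not given. With a striatal score as covariate 23 were called, and in a fit over all 15 libraries 4 were. DESeq2 and limma called all 24. Direction did not change for any of the 24 in any of those fits.

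In the other 8 libraries, 23 of the 24 genes could be tested, 4 had the same sign, and none was called by edgeR's quasi-likelihood test, where 0.135% of all genes were called. At an unadjusted p of at most 0.05, Aim2 was higher there (0.74) and Rtp4 and Gbp10 were lower (-0.63 and -0.66). For the whole list, 7 of 48 members were positive there and the median was -0.20, with none called and 5 lower at an unadjusted p of at most 0.05. The test of the difference between the olfactory-marker and other libraries over all 15 called none of the 24, and 0.00583% of all genes. At an unadjusted p of at most 0.05 it had 23 of 24, and 4.33% of all genes. The 24 were chosen by the test in the olfactory-marker libraries, which form one side of this difference. Small p-values are favoured by that choice, so the share of all genes is no fair baseline.

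Antigen presentation genes moved the same way with smaller differences. Of 27 tested, 25 were positive with a median of 0.56, and 2 were called (against 0.201% of all genes). Cd74, the invariant chain of MHC class II, rose by 1.17 ± 0.14 (adjusted p = 0.0302, edgeR), from 5.68 and 4.48 CPM in the WT females and 3.23 and 3.14 in the WT males to 11.9, 6.32 and 7.74 in TG female 2, TG male 1 and TG male 3. Nlrc5, the transactivator of MHC class I, rose by 1.43 ± 0.20 (adjusted p = 0.0499, edgeR). DESeq2 called 9 of the 27 higher, where it called 89 of 16390 genes higher. Neither Cd74 nor Nlrc5 was called without TG female 2.

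**Figure D2:**
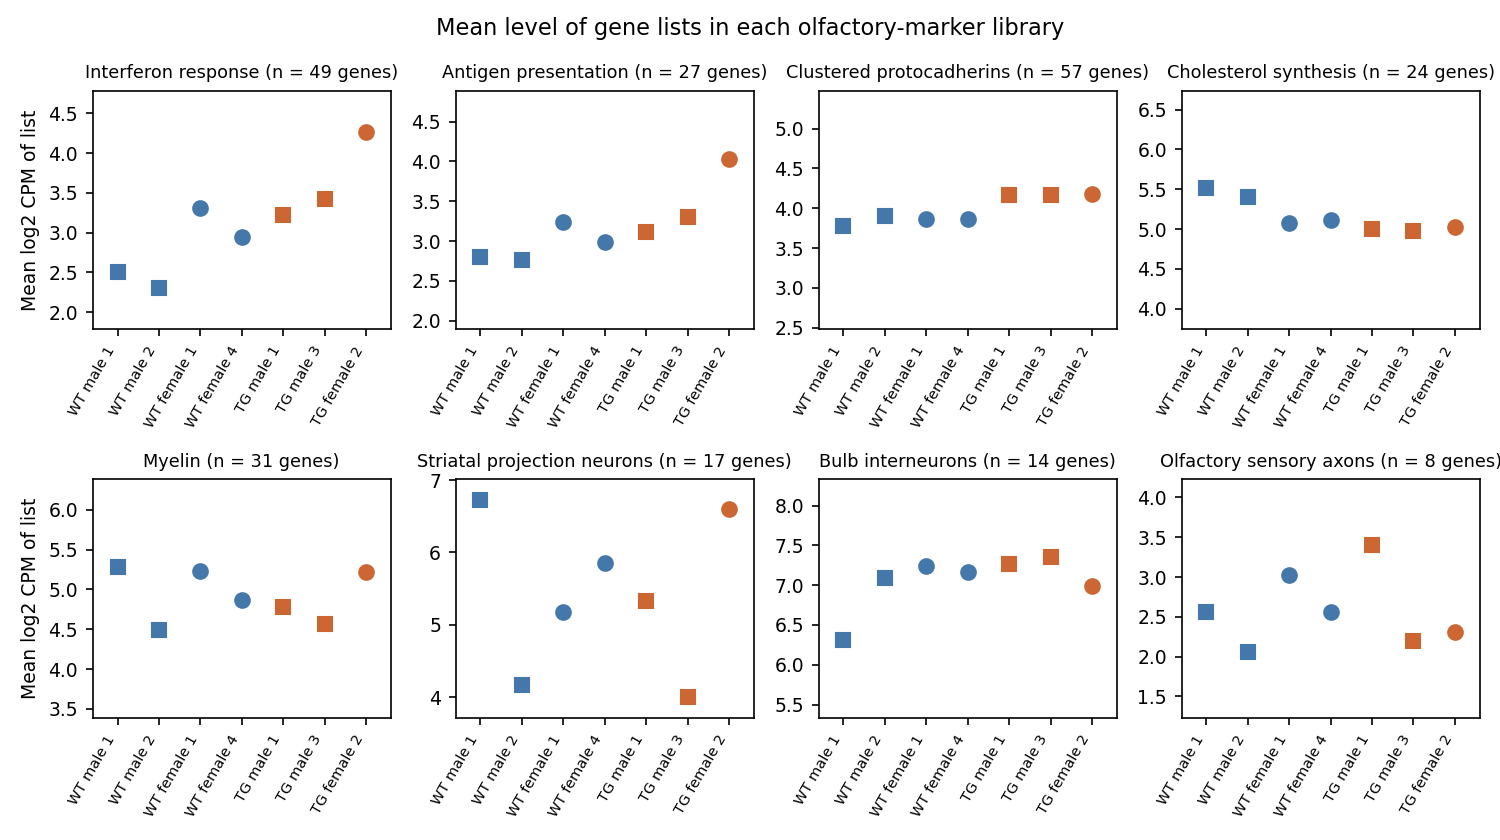
Mean log2 CPM of 8 gene lists (number of tested genes in each title) in the 7 olfactory-marker libraries, with squares for males, circles for females, blue for WT and orange for TG. Interferon response is highest in TG female 2 at 4.26, striatal markers are highest in WT male 1 and TG female 2, and protocadherins separate the genotypes.

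Markers of immune cells were mostly low, and some were highest in TG female 2, as the interferon genes were. The neutrophil and monocyte list had a summed level of 2.11 to 16.7 CPM in WT and 2.88 to 4.63 CPM in TG, with 1 defining marker at 0 in all 7 libraries. T and NK cell markers summed to 4.74 to 7.89 CPM in WT, 3.05 and 3.37 CPM in TG males 1 and 3, and 12.1 CPM in TG female 2. Microglial homeostatic genes had a mean log2 CPM of 5.10 in TG female 2 and of 4.69 to 4.91 in the other 6 libraries. Between genotypes these 16 microglial genes had a median log2 difference of 0.13, with 11 positive and none called by edgeR, 1 higher and 1 lower at an unadjusted p of at most 0.05. DESeq2 and limma called none of them either. Without TG female 2 their median was -0.04 with 5 of 16 positive, so the direction rested on that library. The part of these cells in the interferon difference was not tested.

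Genes of the disease-associated microglial state were positive for 17 of 18, with a median of 0.18 (0.13 to 0.30 with single libraries left out), and none was called by edgeR, though 5 were higher at an unadjusted p of at most 0.05 and DESeq2 called 1. The members with the smallest p were Clec7a, a pattern recognition receptor (1.34 ± 0.26), Lgals3bp (1.13 ± 0.30) and Gpnmb (0.81 ± 0.22). Lgals3bp was 23.2 CPM in TG female 2 but 6.77 and 8.30 in the TG males, where WT ranged from 4.42 to 7.17. Complement genes gave 13 positive of 16 and no call by edgeR, with 3 higher and 1 lower at an unadjusted p of at most 0.05, while DESeq2 called 2 higher and 1 lower. Over all 16390 genes 528 were higher and 454 lower at such a p. The complement median of 0.22 fell to 0.02 without TG female 2, with 9 of 16 positive, and without WT male 1 edgeR called 2 members higher. C4b, a complement C4 gene, was 220 CPM in TG female 2, 114 and 118 in the TG males, and 73.1 to 126 in WT, with a difference of 0.66 ± 0.14. C4a, another C4 gene, was higher in TG in 19 of 19 alternative fits (0.46 to 0.65). How reads with several matches were counted is not given, so the C4 member is uncertain. Cd59a, a shield against complement lysis, was lower in each TG library, at 10.1 to 12.8 CPM against 17.0 to 23.1 in WT, a difference of -0.91 ± 0.15 (adjusted p = 0.0876, edgeR).

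Serpina3n, a protease inhibitor that reactive astrocytes and oligodendrocytes make, was called and differed from the interferon genes in its distribution. It stood at 55.3 CPM in TG female 2 and 45.8 and 40.8 in TG males 1 and 3, against 25.7 and 28.9 in the WT females and 24.5 and 22.1 in the WT males. The genotypes did not overlap, and WT males and females were close. The difference was 0.94 ± 0.08 (adjusted p = 0.0107, edgeR) and 0.89 ± 0.11 without TG female 2 (adjusted p = 0.0404, edgeR). In the other 8 libraries it was 0.09.

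The clustered protocadherins on chromosome 18 encode adhesion molecules whose combinations give neurons distinct surface identities. Each variable exon has its own promoter and is joined to shared exons, and members of the gamma group share their last exons, so a gene-level count for that group is uncertain as to member. Of 57 tested members, 45 were positive with a median of 0.30 against 0.00 for all genes. Past the threshold 6 rose and 2 fell, where 0.201% and 0.104% of all genes did so. All TG libraries were above all WT libraries for 31 members (4.01% of all genes), and below them for 2 (2.99% of all genes). The list's mean log2 CPM was 4.16 to 4.18 in TG and 3.78 to 3.90 in WT.

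Pcdhgb8, annotated as a transcribed pseudogene, was 18.88, 18.003 and 18.006 CPM in TG female 2, TG male 1 and TG male 3 and 4.91 to 7.55 CPM in the 4 WT libraries. It rose by 1.60 ± 0.12 (adjusted p = 0.00868, edgeR). Pcdhb8 was 24.0, 23.8 and 24.1 CPM in TG female 2, TG male 1 and TG male 3 and 8.58 to 14.7 CPM in WT, and rose by 1.21 ± 0.15. Pcdhb3, Pcdhb2, Pcdhga4 and Pcdhga10 rose by 0.68 to 0.80.

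A pair of gamma members fell. Pcdhga11 was 17.5 to 18.1 CPM in TG against 40.1 to 59.1 in WT, a difference of -1.49 ± 0.13 (adjusted p = 0.0107, edgeR). Pcdhgb6 was 14.1 to 14.9 CPM in TG against 27.5 to 35.8 in WT, a difference of -1.15 ± 0.10. Both separated the genotypes with no overlap. The 8 called members had the same sign in the other 8 libraries, where 4 were called (0.135% of all genes were).

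**Figure D3:**
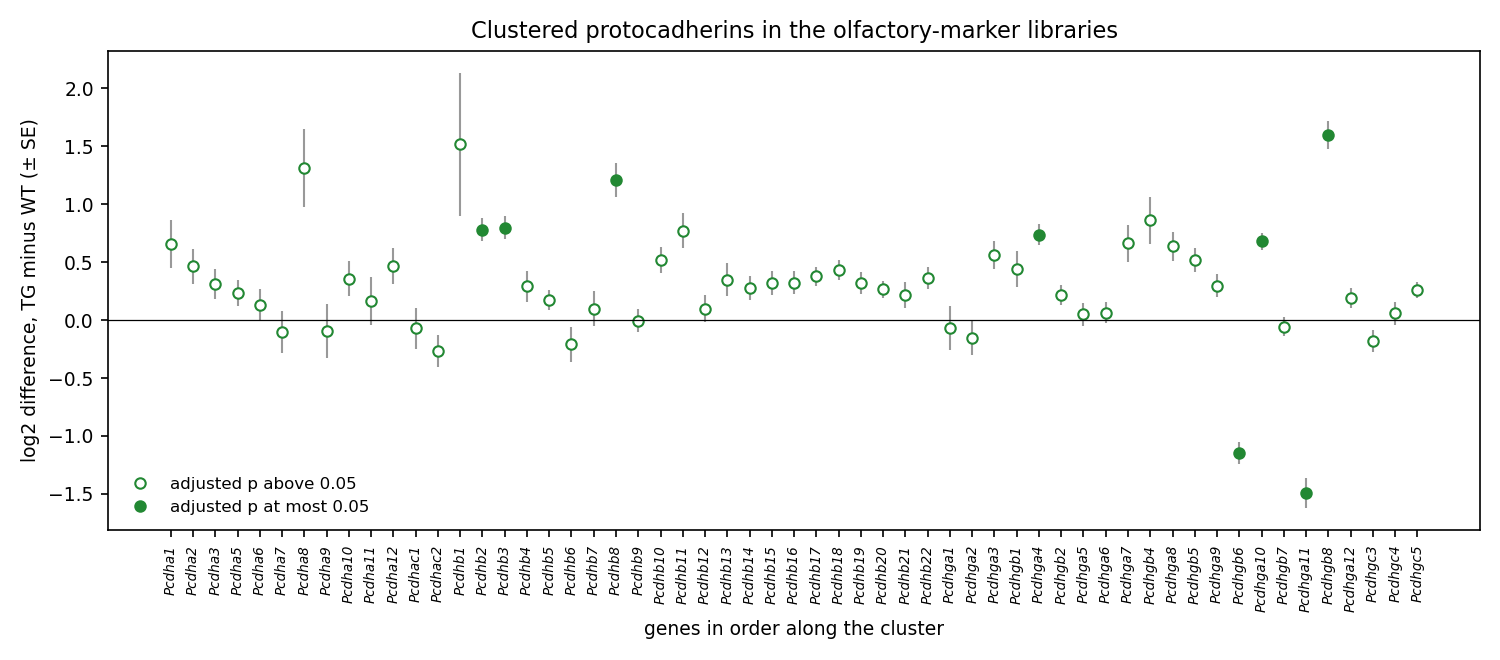
Fitted log2 difference between TG and WT, with its SE, for the 57 clustered protocadherins tested in the 7 olfactory-marker libraries, in order along the cluster. Filled points are the 8 genes with an adjusted p of at most 0.05, 6 above and 2 below 0.

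Gm15446, a long non-coding RNA on chromosome 5, had the smallest adjusted p. It had 265, 259 and 306 counts in TG female 2, TG male 1 and TG male 3 and 4 or 5 counts in each WT library. TG therefore stood at 13.9 to 17.2 CPM and WT at 0.238 to 0.311 CPM, with a fitted difference of 5.76 ± 0.17 (adjusted p = 2.69e-05, edgeR). In the other 8 libraries it was 9.38 to 12.7 CPM in TG against 0.185 to 0.492 in WT.

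Tnnt2, cardiac troponin T, went the other way. It had 1, 1 and 4 counts in TG female 2, TG male 1 and TG male 3, and 35, 70, 27 and 27 in WT male 1, WT male 2, WT female 1 and WT female 4. Its fitted value of -4.36 ± 0.43 (adjusted p = 0.0165, edgeR) depends on the prior count of the fit at so few TG counts. In the other 8 libraries it was 1.11 to 7.02 CPM in WT and at most 0.0643 CPM in TG.

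Among the genes that fell, 4 lie on chromosome 1, namely Mcm6, Nav1, Tnnt2 and Gpr55. Mcm6, a subunit of the replicative helicase, was 0.677 to 0.999 CPM in TG against 3.42 to 4.80 in WT, a difference of -2.22 ± 0.20 (adjusted p = 0.0107, edgeR). It lies at chr1:128331575-128359705. Of the 6 MCM helicase genes it was the 1 called, and 3 of the 6 were positive. Nav1, which guides growing axons, was 157, 147 and 141 CPM in TG female 2, TG male 1 and TG male 3 and 285 to 331 CPM in WT, a difference of -1.02 ± 0.06 (adjusted p = 0.00325, edgeR). It lies at chr1:135434580-135688350, on the same chromosome as Tnnt2 at chr1:135836315-135852268 (GRCm38.p6).

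Tcte3, Ermard and Gm3435 lie together on chromosome 17 between 15009840 and 15090045, and all 3 fell, as did Tmem181b-ps on the same chromosome. Ermard was 23.7 to 28.0 CPM in TG against 43.9 to 57.5 in WT. Tcte3 and Ermard overlap in the annotation at their ends, and whether the counting used strand is not given in the sources used here. Fam114a1, Gpr55 (a lipid-sensing receptor), Mcc, Aldh7a1 (lysine breakdown) and Ak4 (a mitochondrial adenylate kinase) also fell, by 1.96, 1.31, 0.79, 0.71 and 0.57 on the log2 scale. TG and WT did not overlap for any of the 17 genes that fell. These genes were chosen by the test on the same libraries, which favours such separation. The share of all genes that lay lower in all TG libraries (2.99%) is therefore no baseline for them.

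The called genes outside the interferon group recurred in samples that the Omp rule left out. Of these 26 genes, 26 had the same sign in the other 8 libraries, 12 were called there by edgeR's quasi-likelihood test and 24 had an unadjusted p of at most 0.05. Over all genes 6.69% had such a p, in either direction. Their calls in the olfactory-marker libraries also depended on single libraries. Of the 26, 25 were still called without WT male 1, 16 without TG female 2, 10 without WT female 1, 3 without WT male 2, and 1 without WT female 4, TG male 1 or TG male 3. Calls without both TG female 2 and WT male 1 are not given, because that fit sets the TG males against WT male 2 alone.

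**Figure D4:**
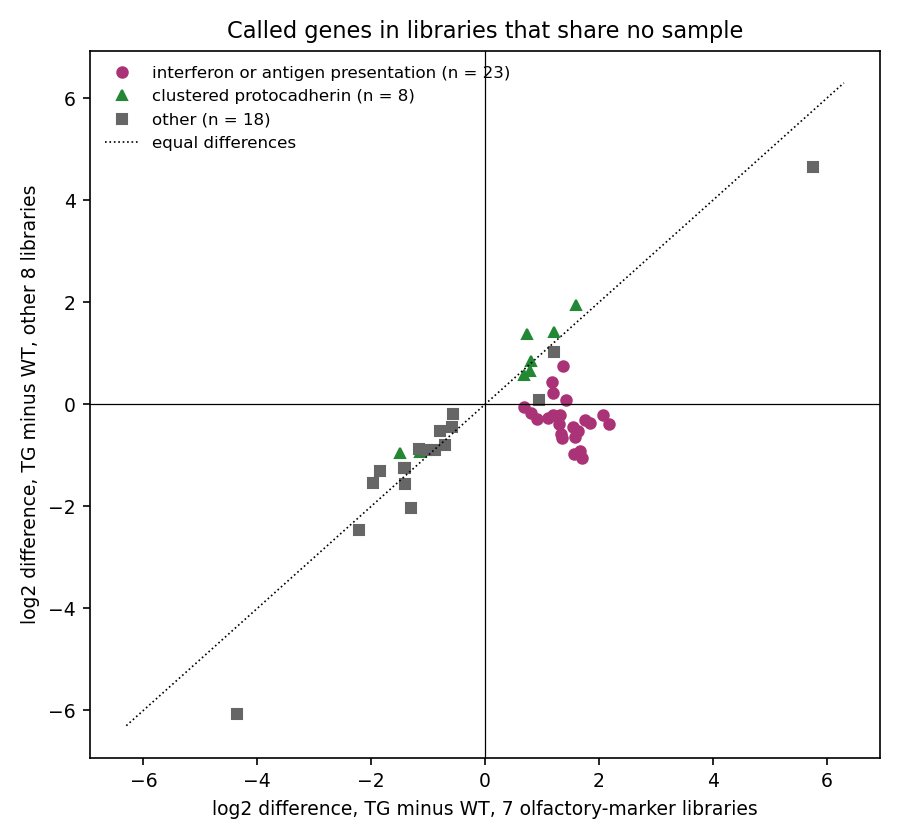
Log2 difference between TG and WT in the 7 olfactory-marker libraries (horizontal) and in the other 8 (vertical) for the 49 called genes tested in both, with a dotted line where they are equal. Of 23 interferon and antigen presentation genes, 19 lie below 0 on the vertical axis, while protocadherins and the other genes have the same sign on both.

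Cholesterol synthesis genes were lower in TG as a group of small differences, none of them called. All 24 members tested were negative with a median of -0.33. None was called by edgeR, DESeq2 or limma, though 15 were lower at an unadjusted p of at most 0.05 by edgeR. The list's mean log2 CPM was 5.51 and 5.40 in WT males 1 and 2, 5.08 and 5.11 in WT females 1 and 4, and 4.97 to 5.02 in TG. All TG libraries lay below all WT libraries for 10 members, where 2.99% of all genes did so. Within each sex TG was below WT for 14 members, against 5.8% of all genes.

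Most of this difference was between the males. In males all 24 members were lower in TG, by a median of 0.47 (log2), while in the female comparison 7 of 24 were higher and the median was -0.12. WT females were lower than WT males for all 24. Sc5d, which acts late in the pathway, was 48.9 to 49.7 CPM in TG against 57.2 to 69.0 in WT, a difference of -0.35 ± 0.07 (adjusted p = 0.246, edgeR). Fdps, which makes farnesyl diphosphate, and Insig1, the sterol-sensing regulator, differed by -0.43 ± 0.09 and -0.37 ± 0.09. Without TG female 2, 4 members were called lower (0.223% of all genes). With a striatal score as covariate 4 were called lower, in a fit that called more genes in all. In the other 8 libraries 2 of 24 were positive and the median was -0.15, with none called. There 6 were lower and 1 higher at an unadjusted p of at most 0.05, where 6.69% of all genes had such a p.

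**Figure D5:**
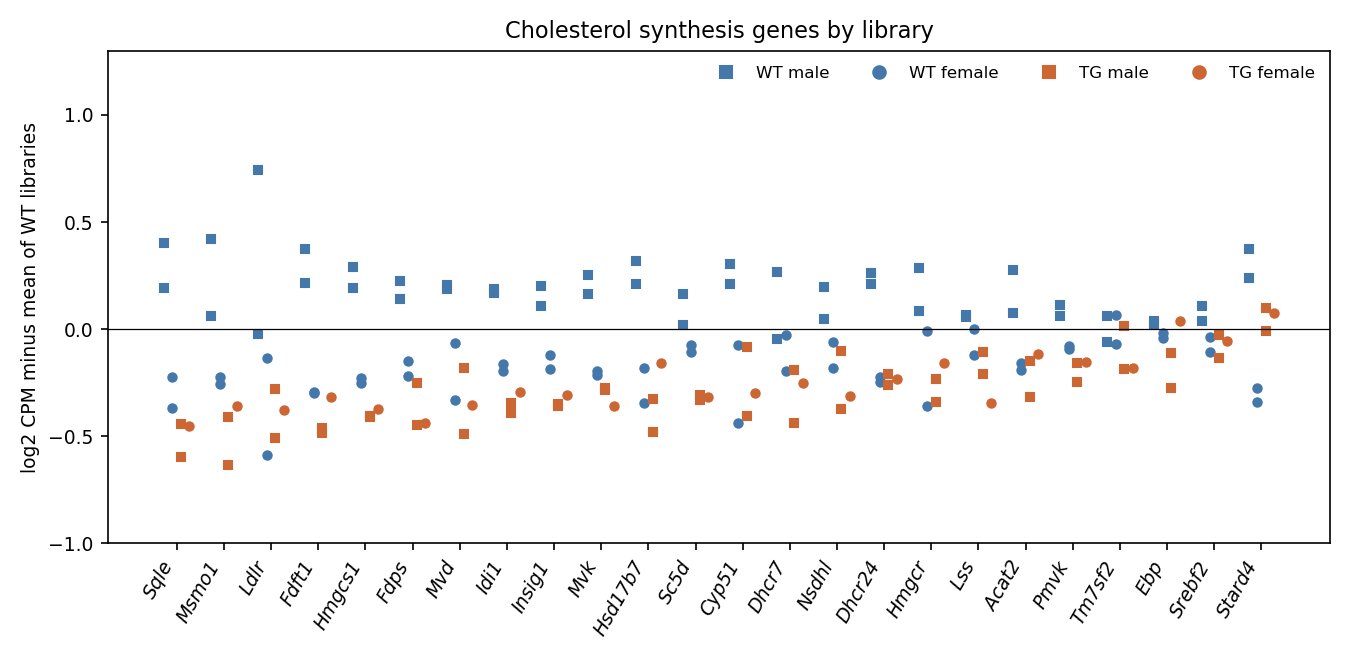
Log2 CPM of 24 cholesterol synthesis genes in each of the 7 libraries, relative to the mean of the WT libraries, ordered by fitted difference. WT males (blue squares) lie highest for most genes, and the 3 TG libraries (orange) lie close to the WT females (blue circles).

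Myelin genes, made by the cells in which the transgene promoter is active, showed no shared direction in these libraries. Of 31 tested, 16 were positive and the median was 0.00. None was called by edgeR, with 1 higher and 2 lower at an unadjusted p of at most 0.05, and DESeq2 called 1 lower. The balance moved with single libraries. Without TG female 2 the median was -0.26 with 8 of 31 positive and none called. Without WT male 1 it was 0.26 with 4 called higher, among 74 calls over all genes. Without both it was 0.31, in a fit that sets the TG males against WT male 2 alone. The list's mean log2 CPM followed no genotype, being highest in WT male 1 (5.28), WT female 1 (5.23) and TG female 2 (5.22).

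Klk6, an oligodendrocyte protease, was 0.280 to 0.508 CPM in TG against 0.713 to 1.68 in WT, and Anln, a septin-binding protein of myelin, was 8.47 to 13.6 CPM against 13.1 to 24.5 CPM. Their differences of -1.28 ± 0.34 and -0.81 ± 0.19 did not pass adjustment. In the other 8 libraries the list gave 1 of 31 positive and a median of -0.51, with none called and 28 lower at an unadjusted p of at most 0.05. The difference between library classes was called for none of the 31, with 10 higher at an unadjusted p of at most 0.05.

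The remaining synucleins did not pass the test. Sncb was 158 to 178 CPM in TG against 175 to 219 in WT, a difference of -0.20 ± 0.09 (adjusted p = 0.787, edgeR). Sncg was 1.31 to 1.47 CPM in TG against 0.713 to 6.09 in WT, and its sign turned without WT male 1. Plin4, a lipid droplet coat protein, was 38.2, 27.9 and 21.7 CPM in TG female 2, TG male 1 and TG male 3 against 4.23 to 12.99 CPM in WT. Its difference of 2.04 ± 0.27 came close to the threshold (adjusted p = 0.0596, edgeR) with no overlap of the genotypes.

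Leaving out TG female 2 gave 54 called genes (0.326%), 17 higher (0.103%) and 37 lower (0.223%), and 19 of the original 50 were among them. All 50 kept their sign. WT male 1, high in striatal markers, then remained on the WT side only. The striatal list had a median of -1.06 with 1 of 17 positive, against -0.13 with all 7 libraries. The bulb interneuron list had a median of 0.55 with 14 of 14 positive, against 0.27. Neither list had a call, and the part of tissue content in the calls of this fit was not tested. Genes called only without TG female 2 included Olfm2 (-1.30 ± 0.10), Etnk2 (-2.29 ± 0.29), Tnfrsf11a (-1.49 ± 0.21), Cybrd1 (1.70 ± 0.19), S100a5 (1.40 ± 0.17) and Cyp26b1 (1.32 ± 0.19). S100a5, a calcium-binding protein of olfactory sensory neurons, was 24.3 and 20.6 CPM in the TG males and 7.15 and 9.74 CPM in the WT males, but 20.36 and 22.95 CPM in the WT females. The WT females lay at the level of the TG males, and TG female 2 stood at 12.0 CPM, below them. Leaving out both TG female 2 and WT male 1, the libraries with the most striatal RNA, gave 422 called genes (2.57%), 132 higher (0.803%) and 290 lower (1.76%).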

How the data were processed

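Bulk RNA was measured in 15 brain libraries, read in pairs of 100 bp. The labels' protocol names a stranded total RNA kit with ribosomal depletion, while their molecule entry reads polyA RNA, and this conflict was not resolved. The deposited values are counts of reads per gene, which the authors made with STAR 2.7.5b on GRCm38 and featureCounts of Subread, per the submitters' processing notes. Strand use and treatment of reads with several matches are not given in the sources used here. Of 27179 NCBI gene IDs, 25275 matched a RefSeq symbol and position (GRCm38.p6), and 507 genes tested had none.

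Genes were kept by filterByExpr over genotype, scaled by TMM and fitted with edgeR 4.0.16 in R 4.3.3 (quasi-likelihood test, robust, sex as covariate, 4 residual degrees of freedom, Benjamini-Hochberg adjustment at 0.05). CPM uses TMM-scaled library sizes, except for the Omp rule. The other 8 libraries were fitted with sex and library class (hindbrain, cortex or cerebellum by Hoxa5 and Gabra6), and the interaction over all 15. DESeq2 1.42.0 and limma 3.58.1 (voom) were alternatives, and scripts were tested on simulated counts. No pair of the 7 libraries agreed within sampling noise (lowest chi-square per gene 6.03). Labels do not say that same-numbered mice are related or which libraries are separate animals, so the p-values reflect only how these libraries vary. The sample titles also give each group of genotype and sex its own leading number, shared by all its libraries. What that number stands for is not stated, so differences of sex or genotype cannot be told apart from that grouping.

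Named genes were called genes with a plain symbol and at least 1 CPM on average, up to 15 per direction by size. Of each list described, up to 6 called members were named, or otherwise the 3 with the smallest p. Genes gained or lost without TG female 2 were named up to 6 each, with Sncb, Sncg and Omp always. Some genes that these rules name are not reported here. A few others were named after their values were seen, among them Gm15446, Pcdhgb8 and others of the 24 interferon genes. The libraries and the 47 gene lists were chosen with earlier results of these data known. Lists are described by counts and medians, with no set test.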

Additional observations from a re-analysis of the deposited data

Results flagged for a closer look

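Of 88 groups of 4 WT values looked at, 3 had 1 library far from the rest, where chance gives about 1 in 20. WT female 4 was lowest for Tcte3, at 1.59 CPM against 2.09 to 2.18 CPM in the other WT libraries (gap over range 0.844). WT male 1 was highest for Sncg, at 6.09 CPM against 0.713 to 1.37 CPM (0.877). WT male 1 was also lowest for the bulb interneuron list, with a mean log2 CPM of 6.31 against 7.09 to 7.24 (0.839).

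The genotype difference differed between library classes for Gm10548, a transcribed pseudogene on chromosome 18, by 3.66 ± 0.36 on the log2 scale (adjusted p = 0.00576, edgeR's quasi-likelihood test over 15 libraries). It was 4.00 to 6.55 CPM in all 7 olfactory-marker libraries, and in the other 8 WT had 1.85 to 2.39 CPM while TG had 0.114 to 0.238. In those TG libraries 3 counts came to between 0.154 and 0.198 CPM. The size of the fitted value therefore depends on the prior count of the fit.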

How the results depend on the processing

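The 50 called genes kept their sign in all alternatives run. DESeq2 gave 120 calls, a striatal score as covariate 132, and no sex covariate 23 (8 higher and 15 lower). Leaving out both WT male 1 and TG female 2 gave 422. A fit to males only, chosen after seeing the data, gave 1, Gm15446. Leaving out single libraries gave between 1 and 74 calls: 74 without WT male 1, 54 without TG female 2, 17 without WT female 1, 3 without WT male 2, and 1 (Gm15446) without WT female 4, TG male 1 or TG male 3. With the replicate block no gene was called by edgeR (0, with 192 at an unadjusted p of at most 0.05), and deviations of same-numbered libraries correlated at 0.03, 0.03 and -0.45, so the numbers were not taken as pairs. Sncg turned from -0.78 to 0.97 without WT male 1 and TG female 2, and ran from -1.24 (without TG female 2) to 0.45 (without WT male 1) when single libraries were left out, the cause not being tested. The other 8 libraries gave 22 calls (26 with DESeq2 size factors), and the interaction 1 under each alternative run. Counting error limits statements on genes near 3 counts, such as Tnnt2 in TG.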

Other observations

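Immediate early, meningeal fibroblast and ribosomal protein genes had no call by edgeR, DESeq2 or limma. Immediate early genes were positive for 14 of 17 with a median of 0.47, but none reached an unadjusted p of 0.05 in either direction. Their median ran from 0.16 (without TG male 3) to 0.93 (without WT male 2) with single libraries left out, and was -0.21 without WT male 1 and TG female 2. Meningeal fibroblast genes were positive for 11 of 12 with a median of 0.23, and were higher in WT females than in WT males for all 12, by a median of 0.80. Of these 12, 1 was higher in TG at an unadjusted p of at most 0.05. Their median ran from 0.09 (without WT male 2) to 0.56 (without TG female 2, with 6 of 12 at such a p). It was 0.59 without both WT male 1 and TG female 2, where WT male 2 is the only WT male. Ribosomal protein genes had a median of 0.03 over 77 members, with 0 at such a p.

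Chromosome 18 held 12 of the 50 called genes among 437 tested there (2.75%, against 0.305% over all genes), 8 of them clustered protocadherins. Chromosome 17 held 4 of 785 tested (0.51%), all lower in TG, and chromosome 1 held 6 of 932 (0.644%), of which 4 were lower. Both shares were far nearer to that over all genes than the share of chromosome 18 was.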
